A study of Homo sapiens with 4 samples.

Results

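The genes described here are 45 human interferon response and RNA-sensing genes, taken by name from a list drawn up by function. Of these, 42 were measured by a probe set of their own, out of 19798 genes in all; STAT2, IFITM2 and USP18 were not and are left out here. Each gene was represented by its brightest probe set. RNA came from HCT-116 dicer- cells, derived from a human colorectal cancer line, in which Dicer is altered. Dicer trims precursors to mature microRNAs, and every group carried that alteration. There were 4 one-colour arrays: 1 of cells transfected with 10 nM of the segmented miR-124 duplex (G10.12/P in the labels), 1 of cells transfected with 10 nM of the intact miR-124 duplex (G/P), and 2 of mock-transfected cells, all collected at 24 h. The labels do not state whether the line is 1 clone, what the mock transfections contained beyond that word, or whether the mock arrays came from separate cultures. The p-values therefore measure only the spread between the mock arrays, which may be technical, and the single array of each duplex is assumed to vary as the mock arrays do.

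Cells detect double-stranded RNA through the cytoplasmic receptors encoded by RIGI and IFIH1, the endosomal receptor TLR3 and the kinase EIF2AK2. The first 3 lead through IRF factors to the making of interferon beta, the product of IFNB1. Secreted interferon then acts through its receptors on transcription factors, IRF9 among them, that bind the interferon-stimulated response element and turn on genes whose products bind, cut or trap viral RNA and proteins. Transfected RNA duplexes are known to be able to start such a response.

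A few of the interferon response genes rose with each duplex and most did not pass the test. With the segmented duplex IFIT1, IFIT2, HERC6 and IFI44 rose above mock, by 2.06-fold to 2.68-fold. With the intact duplex IFIT1, IFIT2, TRIM22, HERC6, IFI6, SAMD9, SAMD9L, IFIH1, IFNB1 and IRF7 rose, by 1.56-fold to 3.4-fold, and DTX3L fell. With arrays centred on their medians, 5 of these 10 rises, those of IFIH1, IFNB1, IRF7, SAMD9 and SAMD9L, no longer passed (limma adjusted p from 0.0503 to 0.118). IFIT1, IFIT2 and HERC6 were the 3 genes that rose with both. The genes that encode the chemokines CXCL10, CXCL11 and CCL5, the GTPases MX1 and MX2, the OAS enzymes and RSAD2 did not pass with either duplex.

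In counts, 4 of 42 measured genes (9.52%) rose with the segmented duplex, against 3.31% of all genes, and 0 fell, against 2.68% of all genes (limma, Benjamini-Hochberg adjusted p of 0.05). At an unadjusted limma p of 0.05, 13 of the 42 were higher with the segmented duplex, against 16.2% of all genes, and 2 were lower, against 11.1%. With the intact duplex 10 of 42 (23.8%) rose, against 14.5% of all genes, and 1 (2.38%) fell, against 10.4%. By size alone, 8 genes lay at least 1.5-fold above both mock arrays with the segmented duplex and 1 lay that far below, where 7.37% and 4.89% of all genes did. With the intact duplex 9 lay at least 1.5-fold above both mock arrays and 1 below, where 13.7% and 9.52% of all genes did. Between the mock arrays, 0 of the 42 were at least 1.5-fold higher on array 2 (1.58% of all genes) and 2 were that much lower (1.65%).

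The median log2 difference of the 42 genes was 0.16 with the segmented duplex and 0.18 with the intact duplex, against 0.01 and 0.02 over all genes, but it was -0.03 and -0.06 with arrays centred on their medians. That centring alone moved the median difference of all genes by -0.19 for the segmented and -0.24 for the intact duplex, so that all genes then had medians of -0.18 and -0.23. Without mock array 2 the median with the intact duplex was 0.10. The median of array 2 minus array 1 of the mock pair was -0.05. Of the 42 genes, 30 were above mock with the segmented and 27 with the intact duplex, without centring. The share of all genes above mock was not counted, so these counts have no background beside them. The comparisons share both mock arrays, so a gene read low on those arrays appears higher with both duplexes.

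**Figure D1:**
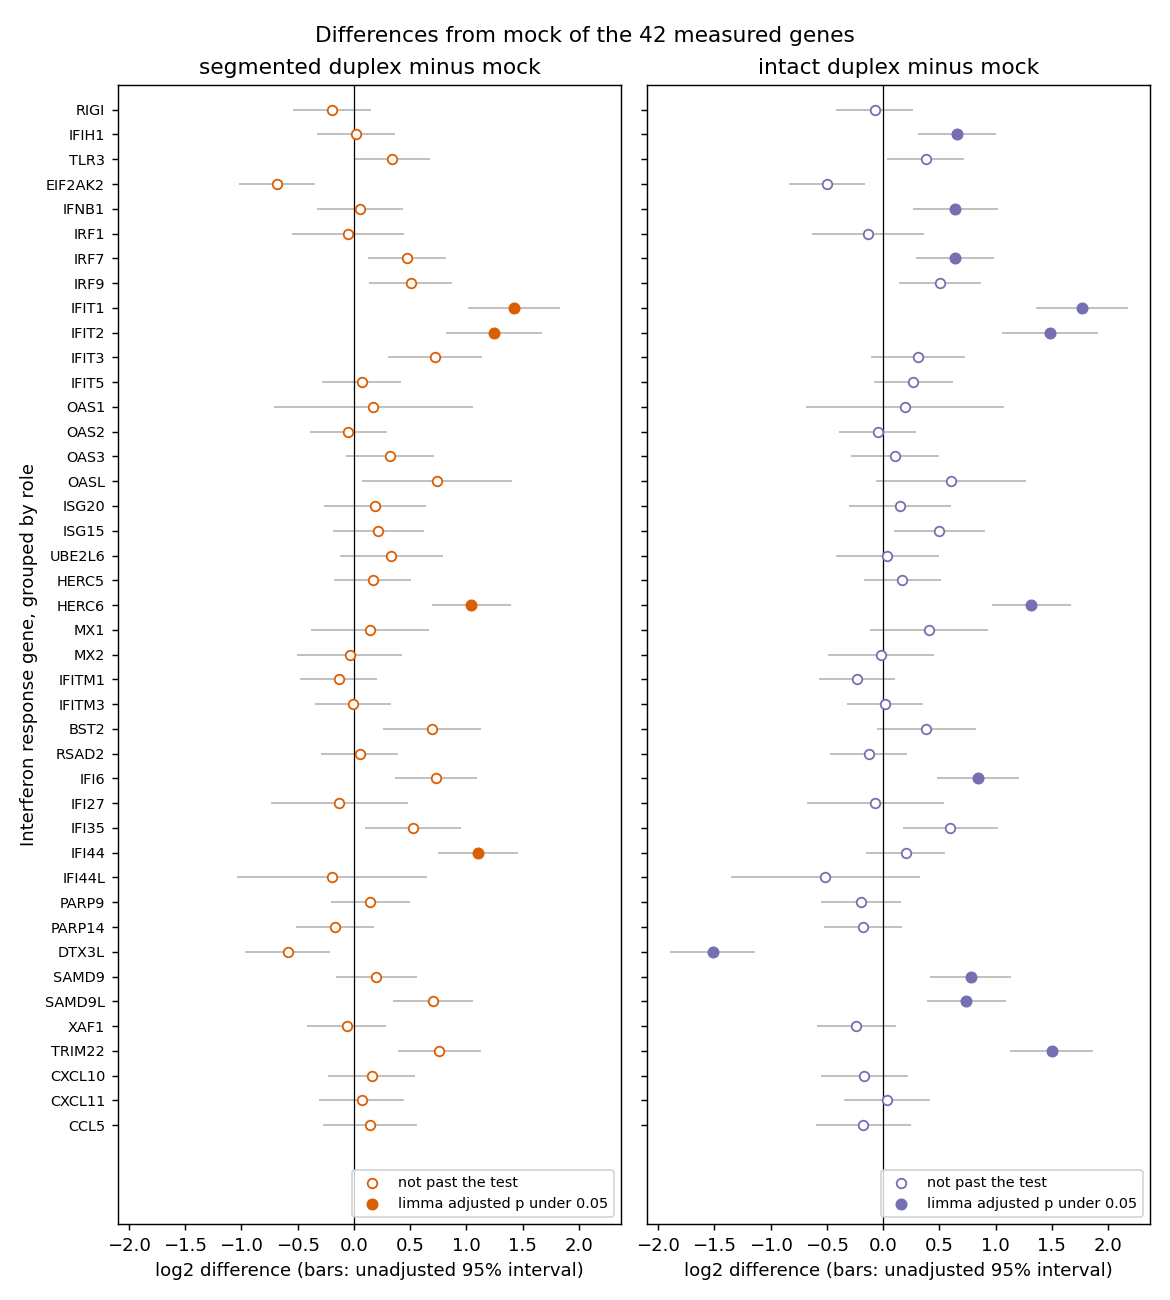
Log2 difference from mock (x axis) of the 42 measured genes (y axis, by role) for the segmented duplex (left) and the intact duplex (right). Filled points passed the limma test, and bars are unadjusted 95% intervals; 4 genes are filled on the left, all to the right of 0, and 11 on the right, of which DTX3L alone lies below 0.

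Among the RNA sensors, 1 of 4 rose with the intact duplex and 0 of 4 passed with the segmented duplex. The counts by role, here and in the paragraphs below, stand against the shares of all genes. Those were 3.31% higher and 2.68% lower with the segmented duplex, and 14.5% higher and 10.4% lower with the intact duplex. IFIH1, which encodes the long double-stranded RNA receptor MDA5, had a log2 level of 8.65 with the segmented duplex and 9.29 with the intact duplex, against 8.66 and 8.60 on the mock arrays. It rose by 0.66 with the intact duplex (limma SE 0.12, adjusted p = 0.0331), while the segmented array lay between the mock arrays (difference 0.02, adjusted p = 0.943). Its other, dimmer probe set went the other way, with 3.41 and 2.88 on the segmented and intact arrays against 4.74 and 3.99 on the mock arrays. With the mean of both probe sets the difference with the intact duplex was -0.41 and did not pass (limma adjusted p = 0.227), so the direction for IFIH1 depends on the probe set used.

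RIGI, the receptor for short RNA with a 5′ triphosphate, had log2 levels of 8.13 and 8.25 with the segmented and intact duplexes, against 8.36 and 8.29 on the mock arrays. Both duplex arrays were below both mock arrays, by differences that did not pass (-0.20 and -0.07, limma adjusted p = 0.389 and 0.699). Those values are of the brightest of its 3 probe sets. The other 2 differed from mock by 0.06 and 0.25 with the segmented duplex, and by -0.04 and -0.06 with the intact duplex. With the mean of all probe sets the segmented difference was 0.04, so the direction for RIGI with that duplex depends on the probe set used. TLR3, which senses double-stranded RNA in endosomes, had 7.68 and 7.72 against 7.36 and 7.32 in mock, differences of 0.34 and 0.38 that did not pass (limma adjusted p = 0.185 and 0.102). They passed without the dimmest 40% of genes (0.0439 and 0.0201), and the intact difference also with a pseudocount of 16 (0.0332), but with the mean of its 2 probe sets the intact difference was -0.15 (0.450). EIF2AK2 encodes the kinase PKR, which halts translation when it binds double-stranded RNA. It had 10.72 and 10.89 against 11.40 and 11.39 in mock, with both duplex arrays below both mock arrays. Its differences of -0.68 and -0.50 missed the threshold (limma adjusted p = 0.0619 and 0.0561). They passed with the trended and robust prior, without the dimmest 40% of genes, with a pseudocount of 16 and with arrays centred on their medians, at limma adjusted p-values from 6.83e-06 to 0.0331. With the mean of all probe sets they were -0.34 and -0.36 and did not pass (0.170 and 0.104), nor did they with a further quantile normalization (0.0626 and 0.0585). The brightest of its 3 probe sets was used; another read slightly above the mock mean on the segmented array, and all 3 were below it on the intact array.

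IFNB1, the gene of interferon beta, stood among the dimmest 40% of genes, with 2.91 and 3.49 on the segmented and intact arrays, against 2.78 and 2.92 on the mock arrays. The intact array was the highest and the segmented array lay within the mock range. The rise of 0.64 with the intact duplex (limma adjusted p = 0.0421) was 0.23 with a pseudocount of 16 and then did not pass (adjusted p = 0.115). Signal this low was not compared with a detection call, so the array does not show whether interferon beta mRNA was present. IRF7, the factor that amplifies interferon production, had 8.04 and 8.20 against 7.59 and 7.53 in mock; both duplex arrays were above both mock arrays. It rose by 0.64 with the intact duplex (limma adjusted p = 0.0349), which was lost with arrays centred on their medians (adjusted p = 0.0831) or with a further quantile normalization (0.0616). With the segmented duplex it differed by 0.48 (adjusted p = 0.110), which passed with the trended and robust prior, without dim genes and with a pseudocount of 16 (0.0132 to 0.0257). IRF9, the DNA-binding part of the interferon-activated complex, had 8.16 and 8.16 against 7.60 and 7.71 in mock, above both mock arrays and not past the test (0.51 and 0.51, limma adjusted p = 0.109 and 0.0655). IRF1, a transcription factor best known for the response to interferon gamma, differed by -0.05 and -0.14.

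The IFIT genes encode proteins that bind the 5′ ends of foreign RNA and block its translation, and 2 of the 4 rose with each duplex. IFIT1, which recognises RNA lacking the methyl marks of host caps, had 8.57 with the segmented and 8.92 with the intact duplex, against 7.25 and 7.06 on the mock arrays. Both duplex arrays lay above both mock arrays by more than 1 log2 unit, while the mock arrays had an SD of 0.13. IFIT1 rose by 1.42 with the segmented duplex (2.68-fold, limma SE 0.15, adjusted p = 0.0365) and by 1.77 with the intact duplex (3.4-fold, adjusted p = 0.0093). IFIT2, which binds AU-rich RNA and promotes apoptosis, had 9.24 and 9.49 against 8.11 and 7.89 in mock, again with no overlap. It rose by 1.24 (2.37-fold, limma adjusted p = 0.0411) and 1.49 (2.80-fold, adjusted p = 0.0116). Both probe sets of IFIT1 and all 3 of IFIT2 went the same way with both duplexes.

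IFIT3, which stabilises IFIT1 in a complex, had 6.88 and 6.47 against 6.06 and 6.26 in mock. The segmented array was the highest and at least 1.5-fold above both mock arrays, but neither difference passed (0.72 and 0.31, limma adjusted p = 0.0778 and 0.219); with the segmented duplex it passed at adjusted p-values of 0.00444 to 0.0162 under the alternatives that called most genes. IFIT5, which binds triphosphate RNA alone, had 8.87 and 9.07 against 8.76 and 8.85, differences of 0.07 and 0.27 that did not pass. By gene order in RefSeq, IFIT2 and IFIT3 are neighbours, as are IFIT1 and IFIT5, all on chromosome 10, so in each pair 1 gene rose and the other did not pass.

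**Figure D2:**
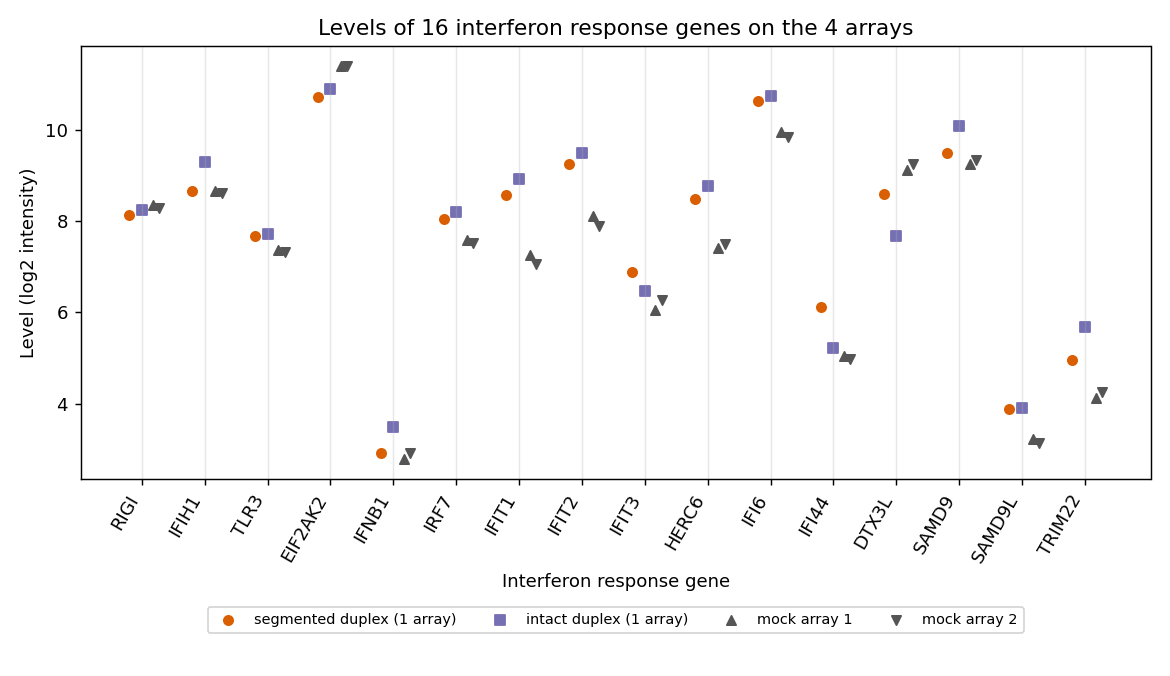
Log2 intensity (y axis) of the 16 genes given in full (x axis) on each of the 4 arrays, with 1 point per array. IFIT1, IFIT2 and HERC6 have both duplex points well above both mock points, IFI44 has only its segmented point apart, and DTX3L has its intact point lowest.

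The RefSeq promoter window of IFIT1 (GRCh38.p14, chr10:89392373-89392672, plus strand, 250 bases before to 50 after the annotated start) is shown because IFIT1 had the largest rise of the list with either duplex. Capitals mark the core of the interferon-stimulated response element (ISRE), here taken as GAAA, any 2 bases and GAAA again on either strand. The window holds 2 copies, both on the minus strand.
IFIT1 promoter: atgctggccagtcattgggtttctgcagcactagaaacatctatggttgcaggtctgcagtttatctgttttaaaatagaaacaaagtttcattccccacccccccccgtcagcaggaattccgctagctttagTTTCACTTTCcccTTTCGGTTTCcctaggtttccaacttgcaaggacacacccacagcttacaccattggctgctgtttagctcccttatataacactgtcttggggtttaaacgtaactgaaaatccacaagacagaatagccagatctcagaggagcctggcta

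In the ISG15 system the ubiquitin-like protein ISG15 is attached to other proteins. Of the 4 measured genes listed with it, 1 rose with each duplex, while ISG15 itself, HERC5 and UBE2L6 did not pass with either. The gene that rose was HERC6, a member of the HERC ligase family, with 8.48 and 8.76 against 7.40 and 7.48 on the mock arrays. The duplex arrays lay about 1 log2 unit above both mock arrays, and both probe sets went the same way. HERC6 rose by 1.04 with the segmented duplex (2.06-fold, limma SE 0.13, adjusted p = 0.0407) and by 1.32 with the intact duplex (2.49-fold, adjusted p = 0.0105). HERC5, its neighbour on chromosome 4 and the main ISG15 ligase in human cells, had 8.50 and 8.50 against 8.30 and 8.35, differences of 0.17 and 0.17 (adjusted p = 0.447 and 0.378). ISG15 itself had 10.59 and 10.87 against 10.46 and 10.28 and did not pass (0.22 and 0.50, limma adjusted p = 0.411 and 0.0833). UBE2L6, the conjugating enzyme for ISG15, differed by 0.33 and 0.04.
The window of HERC6 (GRCh38.p14, chr4:88378602-88378901, plus strand) is printed beside that of IFIT1 because both genes rose with both duplexes. It is all in lower case, since these 300 bases hold no ISRE core, while the window of HERC5, which did not pass, holds 3, of which 2 overlap.
HERC6 promoter: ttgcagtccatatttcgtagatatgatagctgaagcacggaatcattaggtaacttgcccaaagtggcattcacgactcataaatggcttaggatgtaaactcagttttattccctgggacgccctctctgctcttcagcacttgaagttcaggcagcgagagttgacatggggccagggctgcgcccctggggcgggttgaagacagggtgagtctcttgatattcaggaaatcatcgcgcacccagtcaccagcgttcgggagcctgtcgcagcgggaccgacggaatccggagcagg

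The OAS enzymes make the 2′-5′ oligoadenylates that switch on RNase L, and ISG20 is an RNA exonuclease; 0 of these 5 genes passed with either duplex. OASL, an OAS relative without that enzymatic activity in humans, had 6.87 and 6.73 against 6.36 and 5.89 in mock. Both duplex arrays were above both mock arrays, but the mock arrays were themselves far apart, and the differences of 0.74 and 0.60 did not pass (limma adjusted p = 0.155 and 0.154). OAS3 had 10.46 and 10.24 against 10.21 and 10.05, and OAS1, OAS2 and ISG20 differed from mock by between -0.05 and 0.19, with the mock arrays of OAS1 themselves over 1.5-fold apart. The dynamin-like GTPase genes MX1, with 5.42 and 5.68 against 5.43 and 5.11, and MX2, with 4.08 and 4.10 against 4.25 and 3.99, did not pass either, and the segmented arrays of both lay inside the mock range.

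Of the genes for membrane proteins that block virus entry or release and of RSAD2, which encodes the antiviral enzyme viperin, 0 of 4 measured passed with either duplex. IFITM3 had 12.62 and 12.65 with the duplexes against 12.63 and 12.63 in mock, differences of -0.01 and 0.02. BST2, the tether of budding virus particles, had 4.88 and 4.57 against 4.07 and 4.30, above both mock arrays, with differences of 0.70 and 0.39 that did not pass (limma adjusted p = 0.0878 and 0.160). IFITM1 differed by -0.14 and -0.23, and RSAD2, at 2.92 and 2.74 against 2.89 and 2.85, by 0.05 and -0.13. RSAD2, BST2 and IFITM1 were among the 14 measured genes of the list that lay in the dimmest 40% of all genes. A dim probe set is not proof of silence on this array: the only probe set assigned to GAPDH alone, a gene used at high levels in nearly all cells, read 3.92 and 3.97 against 3.95 and 4.05.

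The IFI genes were named for their induction by interferon. IFI44 was the one gene of the list that passed with the segmented duplex and not with the intact duplex. It had 6.12 with the segmented and 5.21 with the intact duplex, against 5.05 and 4.97 on the mock arrays, so the segmented array stood apart from the other 3. It rose by 1.10 with the segmented duplex (2.15-fold, limma SE 0.13, adjusted p = 0.0384) and differed by 0.20 with the intact duplex (adjusted p = 0.315); the difference between the duplexes itself did not pass (adjusted p = 0.184). IFI44 has 1 probe set and lies in the dimmest 40% of genes. The neighbouring gene IFI44L had 4.29 and 3.97 against 4.80 and 4.17, with the segmented array between the mock arrays. IFI6, which encodes a membrane protein that holds back cell death, had 10.62 and 10.74 against 9.95 and 9.83, with both duplex arrays above both mock arrays. It rose by 0.84 with the intact duplex (1.80-fold, limma adjusted p = 0.0224), and its difference of 0.73 with the segmented duplex missed the threshold (adjusted p = 0.0624) and passed with the trended and robust prior, without dim genes and with a pseudocount of 16. IFI35 had 8.60 and 8.67 against 8.18 and 7.97 and did not pass (0.52 and 0.60, limma adjusted p = 0.130 and 0.0625). IFI27 differed by -0.13 and -0.07.
IFI44 has 2 promoter windows; the upstream one (GRCh38.p14, chr1:78649539-78649838, plus strand) is shown because IFI44 passed with the segmented and not with the intact duplex, with its single ISRE core in capitals.
IFI44 promoter: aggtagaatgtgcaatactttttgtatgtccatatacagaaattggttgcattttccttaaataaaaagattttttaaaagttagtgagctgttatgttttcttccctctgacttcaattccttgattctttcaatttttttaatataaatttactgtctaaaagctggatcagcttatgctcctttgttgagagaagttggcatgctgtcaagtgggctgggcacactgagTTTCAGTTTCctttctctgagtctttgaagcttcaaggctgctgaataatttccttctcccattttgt

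SAMD9 and SAMD9L, neighbours on chromosome 7 that encode related antiviral and growth-limiting proteins, both rose with the intact duplex. SAMD9 had 9.49 with the segmented and 10.07 with the intact duplex, against 9.24 and 9.34 in mock, so the intact array was the highest. It rose by 0.78 with the intact duplex (1.72-fold, limma adjusted p = 0.0256) and differed by 0.20 with the segmented duplex (adjusted p = 0.4), with both of its probe sets higher. SAMD9L, in the dimmest 40% of genes, had 3.87 and 3.91 against 3.22 and 3.13. It rose by 0.74 with the intact duplex (limma adjusted p = 0.0272), and the difference of 0.70 with the segmented duplex did not pass (adjusted p = 0.0631). One of its 4 probe sets went the other way with each duplex, and the rise was lost with the mean of all 4 (0.40, adjusted p = 0.0882).

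TRIM22, which encodes a ubiquitin ligase that restricts several viruses, had 4.95 with the segmented and 5.68 with the intact duplex, against 4.12 and 4.25 on the mock arrays. The order was the same in its other probe set, with 4.36 and 5.36 against 3.59 and 3.39. TRIM22 rose by 1.5 with the intact duplex (2.83-fold, limma SE 0.13, adjusted p = 0.00965), and with the segmented duplex the difference of 0.76 missed the threshold (adjusted p = 0.0593). With the mean of both probe sets the segmented difference was 0.82 and passed (adjusted p = 0.0415). TRIM22 lies in the dimmest 40% of genes. XAF1, a pro-apoptotic gene, stayed between 2.58 and 2.86 on the 4 arrays.

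**Figure D3:**
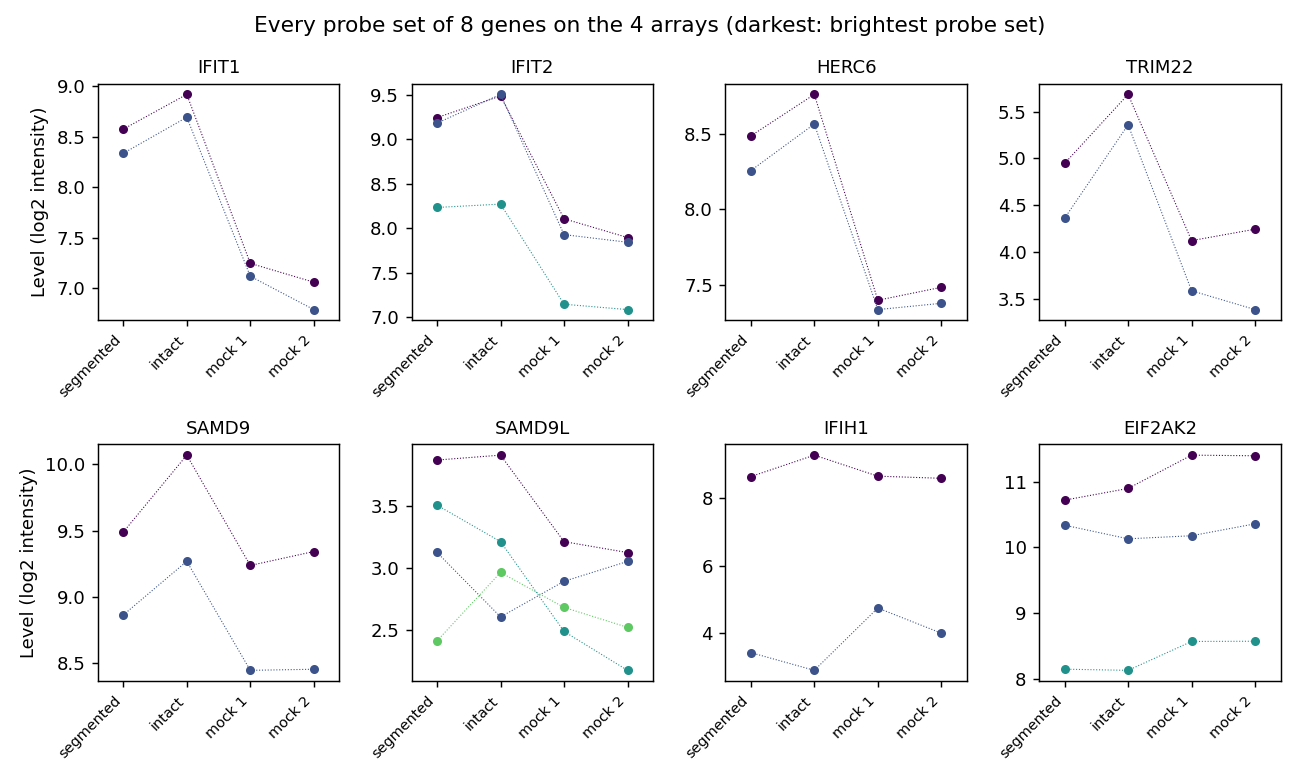
Log2 intensity (y axis) of every probe set of 8 genes on the segmented, intact and mock arrays (x axis); dotted lines join the values of 1 probe set. All probe sets of IFIT1, IFIT2, HERC6, TRIM22 and SAMD9 are above both mock arrays with both duplexes, and those of IFIH1, SAMD9L and EIF2AK2 do not share 1 direction with at least 1 of the duplexes.

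PARP9, PARP14 and DTX3L encode ADP-ribosylating enzymes and the ubiquitin ligase partner of PARP9, and this group held the one gene that fell. DTX3L, which has 1 probe set, had 8.59 with the segmented and 7.66 with the intact duplex, against 9.11 and 9.25 on the mock arrays. Its duplex arrays were both below both mock arrays. It fell by 1.52 on the log2 scale with the intact duplex (limma SE 0.13, adjusted p = 0.00979), and the difference of -0.59 with the segmented duplex did not pass (adjusted p = 0.0910), though it did with the trended and robust prior, without dim genes and with a pseudocount of 16. PARP9 had 8.31 and 7.96 against 8.12 and 8.20, differences of 0.15 and -0.20 that did not pass (limma adjusted p = 0.518 and 0.330), and 2 of its 3 probe sets went below mock with the segmented duplex. With the intact duplex all 3 were below mock. The largest of those differences was -1.32, with 4.96 on the intact array against 6.29 and 6.26 in mock, so the size of the PARP9 difference depends on the probe set used. PARP14 had 10.49 and 10.47 against 10.69 and 10.62, below both mock arrays and not past the test.
DTX3L and PARP9 lie next to each other on opposite strands of chromosome 3, and one of the PARP9 windows shares 137 bases with that of DTX3L. The one ISRE core in the DTX3L window and the one in that PARP9 window are the same 10 bases (GRCh38.p14, chr3:122564332-122564341). They are printed on each strand with 10 bases either side (chr3:122564322-122564351) because DTX3L fell and PARP9, by its brightest probe set, did not pass.
DTX3L strand (plus): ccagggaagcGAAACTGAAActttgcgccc
PARP9 strand (minus): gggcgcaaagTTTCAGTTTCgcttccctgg

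The chemokine genes, whose products draw leukocytes and which are often among the most strongly induced in a full interferon response, did not pass with either duplex. CXCL10 read 2.48 and 2.15 against 2.24 and 2.39, and CXCL11 read 2.43 and 2.40 against 2.43 and 2.29, both in the dimmest 40% of genes. CCL5 read 5.81 and 5.49 against 5.56 and 5.76, with the intact array below both mock arrays. Over the 26 measured genes of the list that were neither past the test, nor 1.5-fold from both mock arrays, nor RNA sensors, log2 differences ran between -0.20 and 0.74 with the segmented duplex and between -0.51 and 0.60 with the intact duplex. The smallest limma adjusted p-values among them were 0.0878 and 0.0625.

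The comparison of the segmented with the intact duplex, at the same dose and time, found no gene past the test. Of the 42 genes 0 were higher and 0 lower with the segmented duplex at a limma adjusted p of 0.05, with 0% of all genes in either direction; the smallest adjusted p among the 42 was 0.184. At an unadjusted limma p of 0.05, 2 of 42 were higher (8.31% of all genes) and 4 of 42 lower (8.22%). The spread in this comparison comes from the mock pair alone. The higher ones were DTX3L, with 8.59 on the segmented and 7.66 on the intact array (difference 0.93, 95% interval 0.49 to 1.36), and IFI44, with 6.12 and 5.21 (0.90, interval 0.49 to 1.31). The lower ones were TRIM22 (-0.74, interval -1.16 to -0.31), IFIH1 (-0.64, -1.04 to -0.24), IFNB1 (-0.59, -1.03 to -0.15) and SAMD9 (-0.58, -0.997 to -0.16). These intervals are not adjusted for the number of genes. DTX3L passed with the trended and robust prior, without the dimmest 40% of genes and with a pseudocount of 16 (limma adjusted p from 0.000288 to 0.0253), and IFI44 with that prior (0.0266) and that pseudocount (0.0324). Among the lower ones, IFIH1 passed under the same 3 alternatives as DTX3L (0.00553 to 0.0388), and SAMD9 with that prior (0.00553) and without the dimmest genes (0.0289). The other, dimmer probe set of IFIH1 went the other way, with 3.41 on the segmented and 2.88 on the intact array. With the mean of both probe sets, IFIH1 differed from mock by -0.47 with the segmented and -0.41 with the intact duplex. TRIM22 and IFNB1 passed under none of the alternatives run.

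For the 3 genes that rose with both duplexes, the segmented and intact arrays were not told apart by the test. The segmented minus intact difference was -0.34 for IFIT1 (95% interval -0.82 to 0.13), -0.24 for IFIT2 (-0.74 to 0.25) and -0.28 for HERC6 (-0.68 to 0.13). Those intervals still allow a level lower with the segmented duplex by about the size of each lower bound. The median over the 42 genes was -0.01, as against -0.02 over all genes, and was 0.04 with arrays centred on their medians.

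**Figure D4:**
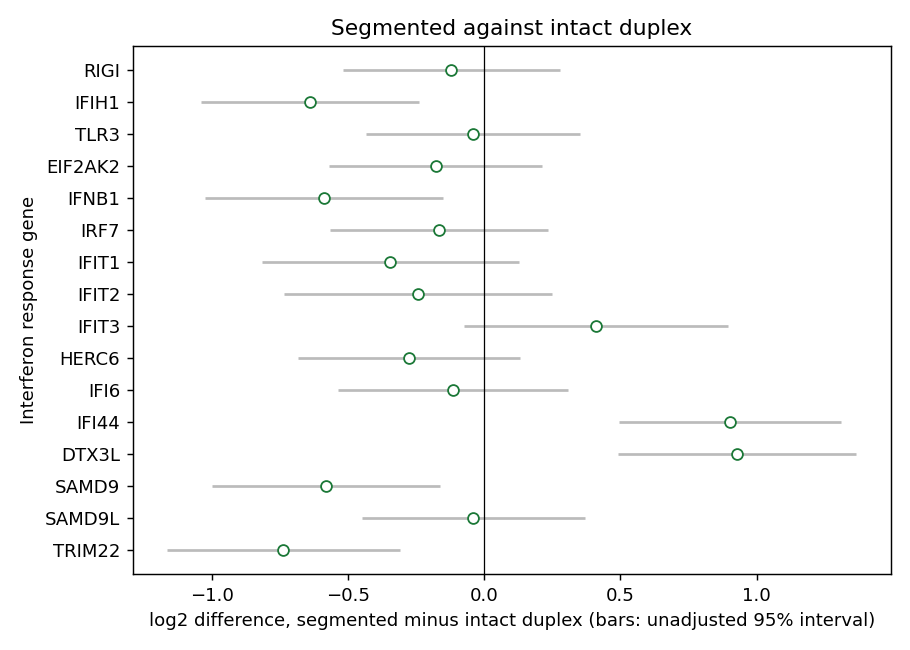
Log2 difference of the segmented minus the intact duplex (x axis) for the 16 genes given in full (y axis), with unadjusted 95% intervals as bars. The intervals of DTX3L and IFI44 lie above 0, those of IFIH1, IFNB1, SAMD9 and TRIM22 below it, and none of the 16 passed the adjusted test.

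The sequence before the start sites of the genes was also searched. The genes were listed as interferon response genes, which are turned on through the ISRE, so its share among them describes the list and not these arrays. RefSeq promoter windows of 300 bases (GRCh38.p14) were found for 36 of the 45 genes, among them 35 of the 42 measured ones. The ISRE core, searched on both strands, was present in at least 1 window of 24 of these 36 (66.7%), against 4.12% of the 15403 measured genes with a window and 3.57% of all 35116 windows. The core of the interferon gamma activated site, TTC and GAA with any 3 bases between them on either strand, was present in 12 of 36 (33.3%), against 9.10% of measured genes and 7.66% of windows. An ISRE core and a core of the other kind overlapped at 5 distinct places, in windows of 4 genes.

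Among the 35 measured genes with a window, holding the ISRE core was not accompanied by a larger median difference. The 24 measured genes with a core had median differences of 0.15 with the segmented and 0.16 with the intact duplex, and the 11 with a window but no core had 0.17 and 0.19. Of the 24, 2 rose with the segmented duplex and 4 rose and 1 fell with the intact duplex; of the 11, 1 rose with the segmented and 3 with the intact duplex. IFIT2, TRIM22 and IRF7 were among the 7 measured genes for which a window was not analysed here. Those 7 had larger medians, 0.48 with the segmented and 0.60 with the intact duplex, and 1 and 3 of them rose. Whether they hold a core is not known here, so the comparison could change with them included. These medians are descriptions, and the windows reach only 250 bases before the start.

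**Figure D5:**
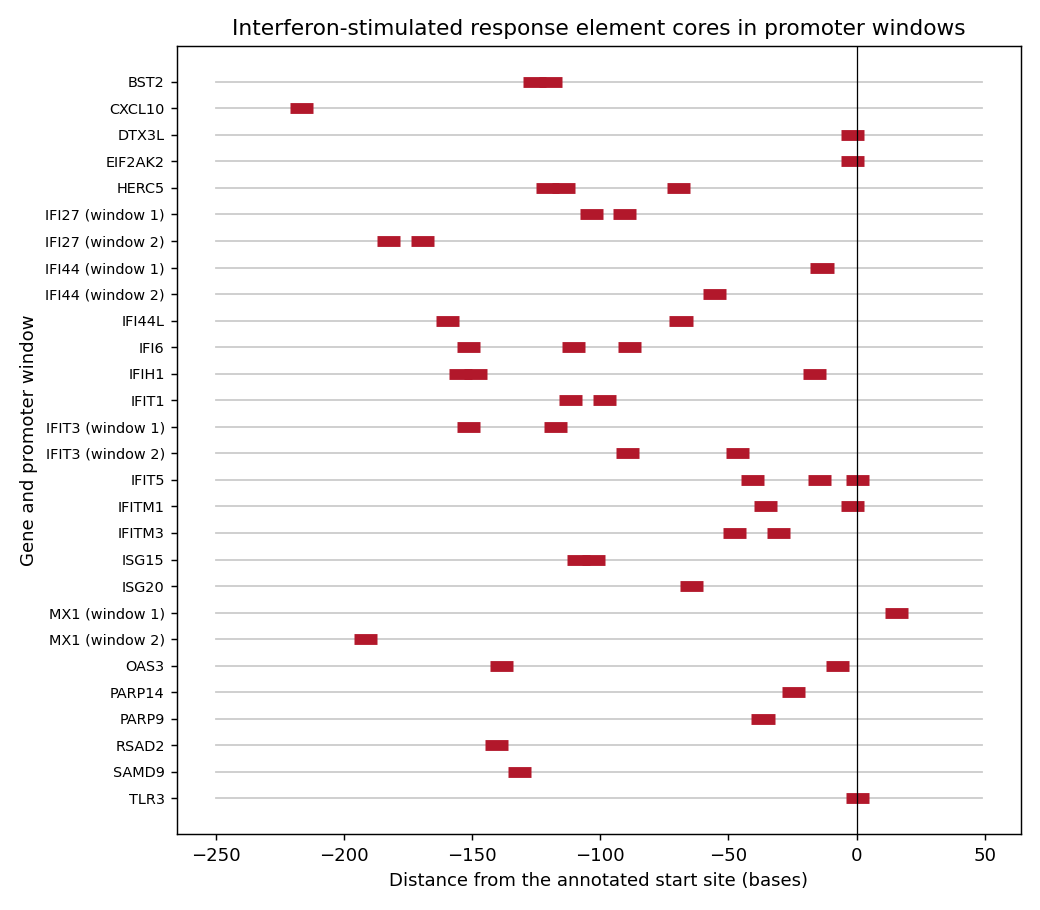
Position of each ISRE core (red) within the 300-base promoter windows of the 24 measured genes that hold one, as distance from the annotated start site (x axis); genes with several annotated starts have a row per window. The cores of DTX3L, EIF2AK2, TLR3, IFIT5 and IFITM1 include one at the start itself, while both cores of IFIT1 lie about 100 bases before it.

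Other genes of the pathway were taken from lists chosen by function. Their counts stand against the shares of all genes given above, 3.31% higher and 2.68% lower with the segmented duplex and 14.5% higher and 10.4% lower with the intact duplex. Among 14 measured receptor and JAK-STAT genes, the segmented duplex had 2 that rose and 1 that fell, and the intact duplex 3 and 2. SOCS1, which shuts off JAK signalling, had 7.83 and 8.04 against 5.60 and 5.48 in mock and rose by 2.29 and 2.5 (limma adjusted p = 0.0349 and 0.00822), although its second probe set was lower than mock with the intact duplex. The phosphatase gene PTPN6 rose by 0.98 and 1.27. IFNLR1, the receptor subunit for interferon lambda, had 9.19 and 8.90 against 10.15 and 10.15 and fell by 0.97 and 1.26 (adjusted p = 0.0412 and 0.0105). STAT3 fell by 1.03 with the intact duplex, with 1 of 2 probe sets going the other way. Among 19 measured sensing and adaptor genes, 1 was lower with the segmented duplex, and 2 were higher and 1 lower with the intact duplex. The one that fell was MYD88, the adaptor of most Toll-like receptors, with 7.93 and 7.29 against 8.83 and 8.76 (-0.87 and -1.5, adjusted p = 0.0470 and 0.00941). The kinase gene IKBKE rose by 1.02 and PRKRA, whose product activates PKR and partners Dicer, by 0.53 with the intact duplex.

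Among 43 further interferon-stimulated genes, 1 passed with the segmented duplex and was higher; with the intact duplex 8 were higher and 4 lower. RNF213, a large ubiquitin ligase gene, had 10.37 and 10.87 against 8.75 and 8.72 and rose by 1.63 and 2.13 (limma adjusted p = 0.0349 and 0.00824), but with each duplex 4 of its 7 probe sets differed in the opposite direction. PML, the organiser of nuclear bodies, rose by 1.55 with the intact duplex, SLFN5 by 1.20 and EPSTI1 by 1.12. These 4 genes had the largest differences of that list; 1 of the 4 probe sets of PML differed in the opposite direction with each duplex. The 4 genes that fell, PARP12, TRIM5, SHISA5 and PLSCR1, did so by 0.69 to 1.02 with the intact duplex. Of 17 measured antigen presentation genes, 2 rose with the segmented and 6 with the intact duplex, and 0 fell. HLA-F had 8.61 and 9.29 against 7.35 and 7.26 (1.31 and 1.98, adjusted p = 0.0362 and 0.00824), and the immunoproteasome gene PSMB9 had 8.0 and 8.09 against 6.96 and 6.99 (1.02 and 1.11, adjusted p = 0.0399 and 0.0126).

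Of 8 other interferon ligand genes measured, 0 passed with the segmented duplex and 1 rose with the intact duplex. It was IFNE, the epithelial interferon epsilon, with 7.10 and 7.64 against 5.53 and 6.12 in mock (limma adjusted p = 0.0869 and 0.0227). Genes of the NF-kappaB response, which double-stranded RNA sensing also turns on, were counted in the same way: of 19 measured, 0 were higher and 1 lower with the segmented duplex, and 0 higher and 5 lower with the intact duplex. CXCL8 had 7.76 and 7.87 against 9.05 and 9.18 and fell by 1.35 and 1.25 (adjusted p = 0.0363 and 0.0124), and RELB, CXCL1 and CXCL2 fell by 0.80 to 0.93 with the intact duplex. The medians of the NF-kappaB list were -0.19 with the segmented and -0.42 with the intact duplex. Among 10 measured housekeeping genes 0 passed with the segmented duplex and 2, ACTB and TUBB, fell with the intact duplex.

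On the series as a whole, the median intensity over 52377 probe sets ranged from 42.6 to 46.3 on the 4 arrays. With so few arrays, all values here have limited precision. DICER1 had 10.80 and 11.13 with the duplexes against 11.21 and 11.28 in mock, which checks nothing about the alteration where the probes lie elsewhere in the gene. The epithelial marker EPCAM read 13.05 and 13.05 against 13.01 and 13.06, while VIL1, LGALS4 and CDH17 of the same list read from 2.77 to 3.68. Of 12 epithelial genes measured, 0 passed with the segmented duplex and 2 rose with the intact duplex, against 14.5% of all genes that rose with the latter. Of 11 leukocyte markers 8 were measured, and their summed intensity was 115 and 108 on the duplex arrays against 112 and 110 on the mock arrays; PTPRC, which marks all leukocytes, read 3.74 and 3.46 against 3.28 and 3.66, and 1 of the 8, ITGAM, rose with the intact duplex. Of 9 fibroblast and endothelial markers all were measured, with a summed intensity of 709 and 979 against 522 and 468, of which COL1A1, which rose by 1.20 with the intact duplex, made up most. Whether any such cells were present, or had a part in the interferon gene differences, was not tested. The 2 duplexes were not compared with an unrelated RNA duplex here, so a response to miR-124 and a response to transfected RNA of any sequence cannot be told apart.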

How the data were processed

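The deposited table gives 1 array intensity per probe set on a linear scale, from 2.51 to 22268, made by the authors with RMA according to the submitters' processing notes, which as used here give no version. RMA output is usually on a log2 scale; these values are not, and their mean is 497 to 501 on every array with unequal medians, so that they were brought back from log2 is an assumption and any later scaling step is not known. The log2 of each intensity was taken, without adding a pseudocount. Names came from the platform annotation, updated by Entrez identifier to RefSeq symbols (GRCh38.p14): 35184 had 1 gene, 374 several and 16819 none listed, and only the first kind was used. The brightest probe set by mean log2 value stood for a gene.

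The test was that of limma (version 3.58.1, R 4.3.3), with 1 mean per group over all 4 arrays, eBayes, and Benjamini-Hochberg adjustment over 19798 genes. There was 1 residual degree of freedom, and the prior had 2.89. Genes given in full were those past the test or, with either duplex, 1.5-fold or more from both mock arrays, the RNA sensors and IFNB1. Of each further list, up to 4 genes past the test with the largest differences were named, so these too were picked by their values. Other genes named were chosen after their values were seen. The members and lists were chosen with earlier results of these data known. Sequences came from RefSeq, with windows for 36 of 45 genes. Alternatives were a further quantile normalization, median centring, a filter on the dimmest 40% of genes, a trended and robust prior, the mean of all probe sets, a pseudocount of 16, and leaving out each mock array.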

Additional observations from a re-analysis of the deposited data

How the results depend on the processing

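The count of interferon response genes past the limma test with the segmented duplex, 4, became 12 of 28 when the dimmest 40% of genes were left out, 16 with the trended and robust prior and 13 with a pseudocount of 16; for all genes the share called also grew under those settings, to 40.2%, 27.4% and 21.6%. With the intact duplex the count of 11 was 7 with arrays centred on their medians, while the share of all genes called was 30.7% in place of 24.9%, and the count at least 1.5-fold from both mock arrays was 6 in place of 10. For the segmented against the intact duplex it was 3, 4 and 3 in place of 0 with the dim genes left out, the trended prior and the pseudocount, where the share of all genes was 15.6%, 12.2% and 5.75% in place of 0%. The other pathway lists, counted here together with the housekeeping genes, had 8 of 129 genes called with the segmented duplex, against 5.99% of all genes. That count became 16 with centring, 42 of 96 without dim genes, 48 with the trended prior and 37 with the pseudocount. The shares of all genes were then 9.34%, 40.2%, 27.4% and 21.6%. With the intact duplex 34 of 129 were called, ACTB and TUBB among them, against 24.9% of all genes. This became 54 of 96, 59 and 53 under the last 3 of these settings, against 58.5%, 39.4% and 35.5% of all genes. The 0 between duplexes became 17, 20 and 8 under the same 3, against the shares of all genes given above for that comparison. The list's median with the segmented duplex was 0.12 with a further quantile normalization, -0.0288 with centring and 0.12 with the pseudocount, and 0.15 to 0.16 with 1 mock array left out. With the intact duplex it was 0.0936, -0.0610 and 0.14 under those settings, 0.29 without dim genes, 0.10 with the mean of all probe sets, and 0.10 to 0.22 with 1 mock array left out. Between duplexes it was 0.0400 with centring, -0.0508 without dim genes and 0.0296 with the mean of all probe sets. IFIH1 turned to -0.41 with the intact duplex with the mean of all probe sets. The cause of these shifts was not tested. IFIT1, IFIT2, HERC6, TRIM22, IFI6 and DTX3L kept their calls with the intact duplex, and IFIT1, IFIT2, HERC6 and IFI44 with the segmented duplex, under every alternative that gave them a test. IFI44 and TRIM22 had none with the dimmest 40% of genes left out. No paired analysis was possible because each duplex has 1 array. Leaving out a mock array removes the residual degree of freedom and gives values with no test.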
